A study of Mus musculus with 157 samples.

Results

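A set of 10 genes of the growth hormone and insulin-like growth factor (IGF) axis was followed in the liver of 157 male mice. They were taken by gene identifier, and all 10 listed genes were found among the 23176 genes of the array. They are the receptor Ghr (ENSMUSG00000055737_at), the kinase Jak2 (ENSMUSG00000024789_at) and the signal transducer Stat5b (ENSMUSG00000020919_at), followed by the hormone Igf1 (ENSMUSG00000020053_at). The IGF carriers are Igfals (ENSMUSG00000046070_at), Igfbp3 (ENSMUSG00000020427_at) and Igfbp2 (ENSMUSG00000039323_at). The feedback inhibitors are Socs2 (ENSMUSG00000020027_at) and Cish (ENSMUSG00000032578_at), and the repressor is Bcl6 (ENSMUSG00000022508_at).

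The mice were pre-Collaborative Cross animals at generations G2:F5 to G2:F12 of brother-sister mating, not yet fully inbred. Of the 8 founders, WSB/Ei, CAST/Ei and PWK/Ph are wild-derived, and C57BL/6J, NZO/H1LtJ, A/J, NOD/LtJ and 129S1/SvImJ are classical laboratory strains. A strain was sampled with 1 mouse, so strain, environment and array error are mixed in the spread between mice, and the founders were not analysed here. All mice ate Chow, were moved to the study site at 9 to 11 weeks of age, passed through a 3 week programme with alcohol exposure and exercise, and were killed at 12 to 15 weeks. Which mouse received which treatment is not given in the labels, so no treatment comparison was made. Kill days at most 3 days apart were joined into 10 kill cohorts, which held 20, 21, 11, 5, 6, 10, 37, 22, 12 and 13 mice from the first to the last.

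Each mouse had 1 Affymetrix array of whole liver. The deposited value of a gene is a rank score, which places the mice on a bell-shaped scale with a median of 0, a lowest possible value of -2.49 and a highest of 2.49. A score holds no expression level and no fold change, so the levels of the 10 genes cannot be set against each other, and every gene has nearly the same range. What can be read is which mice and cohorts stood high or low for a gene, and which genes ordered the mice alike. In whole liver, fewer cells of a type and less RNA per cell cannot be told apart.

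Growth hormone from the pituitary binds Ghr on hepatocytes, which activates the receptor-bound kinase Jak2. Jak2 phosphorylates Stat5b, and Stat5b enters the nucleus and switches on genes that include Igf1, Igfals, Socs2 and Cish, while Bcl6 is repressed by the hormone and itself represses Stat5 targets. Liver is the main source of circulating Igf1, which travels in complexes with Igfals and Igfbp3. In male rodents the hormone is released in pulses, and liver Stat5 activity follows those pulses.

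Because Stat5 proteins bind paired half-sites of the form TTCNNNGAA, this motif was searched in the promoter windows of the genes, from 250 bases before to 50 bases after a start, in RefSeq sequence of GRCm38.p6. The motif reads the same on both strands. Windows were found for 9 of the 10 genes, all except Socs2, and 3 of these genes, Cish, Bcl6 and Igfals, held the motif. Some genes had several windows, and by window 5 of 15 held it. Among 32851 mouse windows of this length, 8.30% held it at least once, 0.457% at least 2 times and 0.0335% at least 3 times. Cish held 2 copies 11 bases apart at its start, Bcl6 held 3 copies in the window of its second listed start and 1 in that of its first, and 2 of the 3 Igfals windows held 1 copy each. These stretches are shown because Cish, Bcl6 and Igfals also belong to the gene pairs with the strongest correlations below. Igf1 belongs to such a pair too, and its 1 window held 0 copies. Capitals mark the motif. The Cish stretch lies at chr9:107296654-107296683 on the plus strand, the Bcl6 stretch at chr16:23981284-23981533 on the minus strand and the Igfals stretch at chr17:24877981-24878230 on the plus strand. A match is a description of the letters and no evidence of binding, and the deposited arrays carry no binding data.

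Cish: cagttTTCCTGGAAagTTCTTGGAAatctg

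Bcl6: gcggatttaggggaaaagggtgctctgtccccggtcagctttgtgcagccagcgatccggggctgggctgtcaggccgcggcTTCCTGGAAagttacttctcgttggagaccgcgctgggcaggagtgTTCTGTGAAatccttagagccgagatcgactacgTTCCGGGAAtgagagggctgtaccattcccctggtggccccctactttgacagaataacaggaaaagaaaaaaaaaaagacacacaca

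Igfals: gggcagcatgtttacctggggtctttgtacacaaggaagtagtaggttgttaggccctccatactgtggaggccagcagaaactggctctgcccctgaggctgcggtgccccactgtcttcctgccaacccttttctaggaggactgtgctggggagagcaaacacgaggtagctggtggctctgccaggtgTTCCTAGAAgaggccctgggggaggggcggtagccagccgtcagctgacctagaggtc

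The axis genes did not vary as one block. Of the 45 pairs among the 10 genes, 7 were associated past the threshold, 5 positively and 2 negatively, and 38 were not. A pair counted as associated when limma's adjusted p was under 0.05 both with the first gene as regressor and with the second, with hybridization batch and kill cohort as covariates and Benjamini-Hochberg adjustment over all 23175 other genes. Over the 10 fits, 5.74% of all tested genes passed with a member as regressor, 13310 of 231750. This share needs only 1 direction, a looser rule than that for a pair, and 10101 of the 13310 were with Jak2. The median size of Pearson's r over the 45 pairs was 0.106. For 6 pairs r was at least 0.3 in size, 5 positive and 1 negative. Of all 268551900 pairs of genes on the array, 5.03% had an r of that size, 3.44% positive and 1.59% negative. With batch and cohort means removed, 7 of the 45 pairs and 4.53% of all gene pairs had it.

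**Figure D1:**
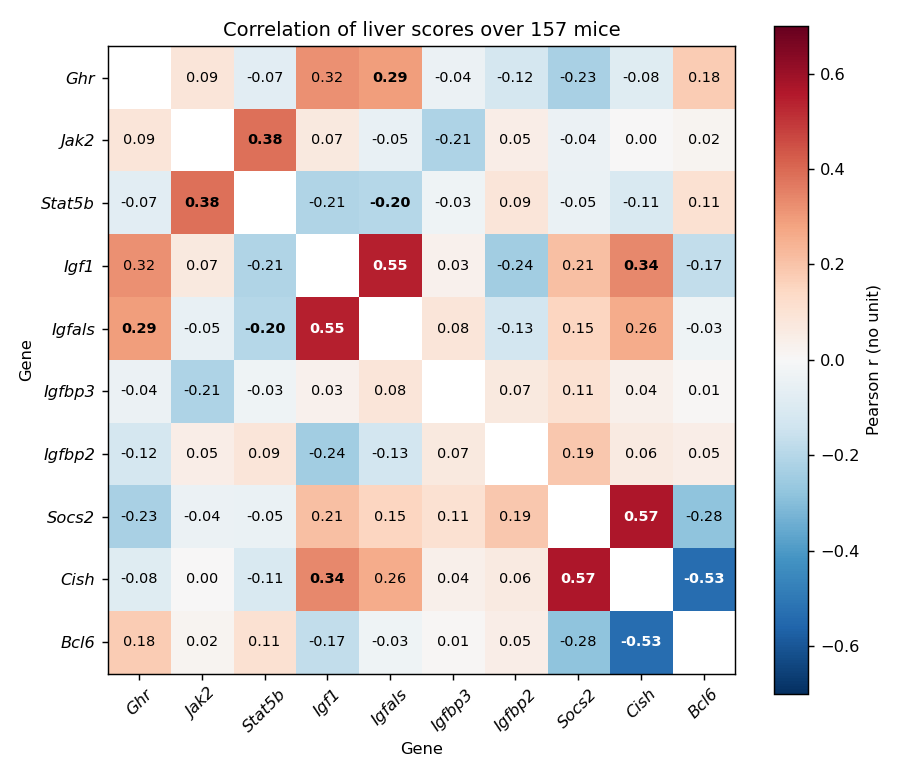
Pearson r (no unit) between the liver scores of each pair of the 10 genes over 157 mice. Bold numbers mark the 7 pairs past the adjusted threshold, of which Socs2 with Cish (0.57), Igf1 with Igfals (0.55) and Cish with Bcl6 (-0.53) had the largest sizes.

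The feedback inhibitors Socs2 and Cish, which dampen signalling from the receptor, ordered the mice most alike. Their scores correlated at r = 0.566 (95% interval 0.450 to 0.664, n = 157 mice) and Spearman's rho = 0.550, each with a two-sided permutation p of 1e-05, the smallest that 100000 resamples can give. Both genes were on the same side of 0 in 103 mice and on opposite sides in 52. The correlation was 0.571 after batch and cohort means were removed and 0.549 without the 2 mice farthest from the Socs2 median. It was positive in each of the 8 hybridization batches, though it ranged from 0.0835 to 0.761, and in each of the 9 cohorts with at least 6 mice. A rise of 1 unit in Socs2 went with a rise of 0.58 ± 0.08 (SE) in Cish (limma, adjusted p = 2.75e-08). Only 0.0461% of gene pairs on the array had an r of this size or more.

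The mice at the ends of the Cish scores had the following Socs2 scores. The 5 mice with the highest Cish scores had Socs2 scores of 1.11, 1.46, 1.53, 2.24 and 2.49, the last being the highest of all mice. Socs2 scores in the 5 mice lowest for Cish were -2.08, -0.88, -0.79, -0.44 and -0.02. Both sets were picked by Cish in the mice that gave r, so their separation for Socs2 restates that correlation and adds no support.

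Bcl6, a transcriptional repressor that competes with Stat5 at some liver genes, ran against Cish. The correlation was r = -0.532 and rho = -0.603 (permutation p = 1e-05 for each, the smallest possible), with 118 mice on opposite sides of 0 and 37 on the same side. It was -0.498 with batch and cohort means removed and -0.538 without the 2 mice farthest from the Cish median. All 8 batches gave a negative value, from -0.732 to -0.321. Of the 9 cohorts with at least 6 mice, 8 were negative, and the exception was cohort 5 with 6 mice (r = 0.257). The slope of Bcl6 on Cish was -0.50 ± 0.08 (limma, adjusted p = 1.98e-06). Cish stood first among the 23175 other genes for association with Bcl6, by the size of limma's statistic, and Bcl6 stood at place 18 for Cish.

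The mice at the ends of the Cish and Bcl6 scores, as in the plot of scores by mouse, did not all lie at opposite extremes. At the low end of Cish, 5 mice had Bcl6 scores of 0.27, 0.95, 1.03, 1.43 and 1.48, all above the median. At the high end, 5 mice had Bcl6 scores of -0.22, -0.21, -0.18, 0.00 and 0.57, and so were not the lowest for Bcl6. The 5 mice with the lowest Bcl6 had Cish scores between -0.13 and 1.03, near or moderately above the median. These are values of single mice, and the shape of the relation was not tested.

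Bcl6 also stood opposite the other inhibitor, but less closely. Its correlation with Socs2 was -0.282 and did not pass (adjusted p = 0.0863 and 0.510 for the 2 directions of the fit). With batch and cohort removed it was -0.265, and it was 0.0271 once Cish was also held fixed. The Socs2 and Cish correlation, by comparison, was 0.525 with Bcl6 held fixed, and that of Cish and Bcl6 was -0.438 with Socs2 held fixed. These partial correlations are descriptions over the same 157 mice.

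**Figure D2:**
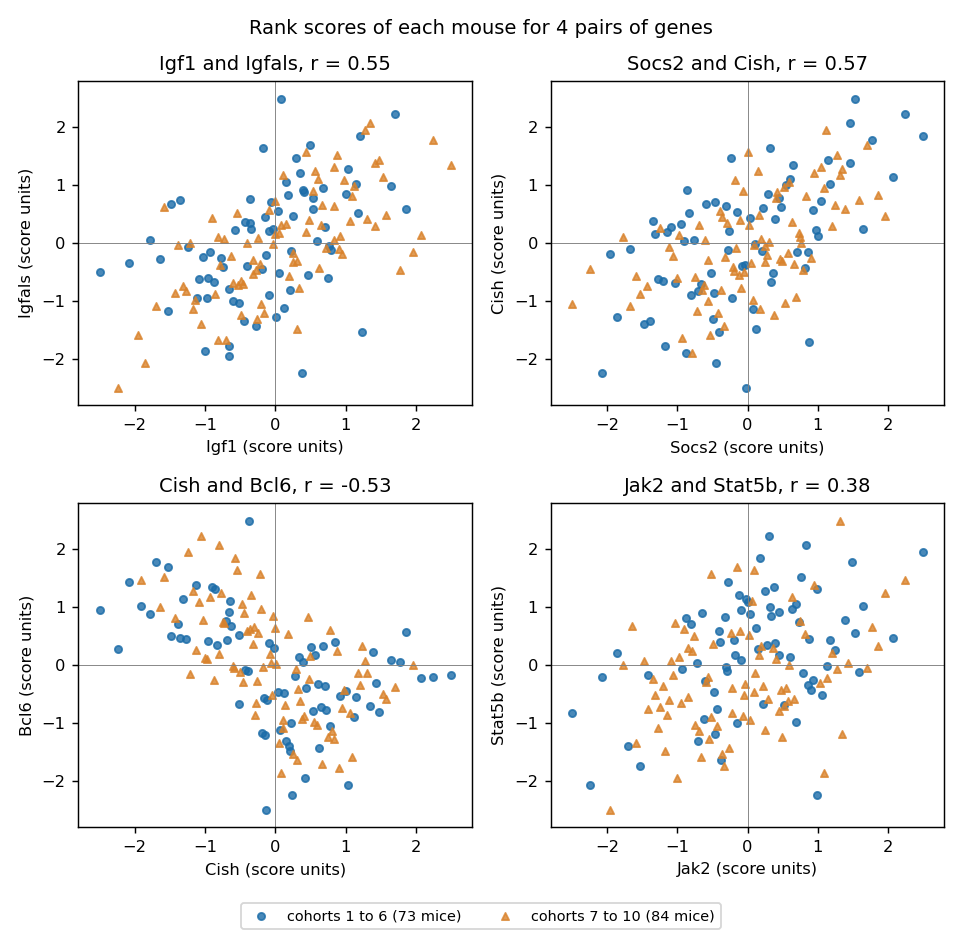
Rank scores of 157 mice (score units on both axes) for 4 pairs of genes, 1 point per mouse, with circles for cohorts 1 to 6 (73 mice) and triangles for cohorts 7 to 10 (84 mice). Igf1 with Igfals, Socs2 with Cish and Jak2 with Stat5b rise together, and Bcl6 is high where Cish is low, with mid-range Bcl6 scores at the highest Cish scores.

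Igf1, the circulating growth factor, ran with Igfals, the acid-labile subunit that keeps Igf1 in its long-lived serum complex. Their correlation was r = 0.546 (95% interval 0.426 to 0.648) and rho = 0.566, each with the smallest possible permutation p of 1e-05, and 110 mice lay on the same side of 0 for both genes against 47 on opposite sides. It was 0.553 with batch and cohort means removed and 0.542 without the 2 mice farthest from the Igf1 median. Every batch (0.293 to 0.733) and every one of the 9 larger cohorts (0.179 to 0.680) gave a positive value. A rise of 1 unit in Igf1 went with 0.58 ± 0.08 units of Igfals (limma, adjusted p = 2.62e-07). Igfals stood first of 23175 genes for association with Igf1, and Igf1 stood at place 4 for Igfals.

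The extreme mice followed the same order with exceptions. The 5 mice with the highest Igfals scores had Igf1 scores of 0.09, 1.21, 1.27, 1.35 and 1.70, and the 5 with the lowest had scores from -2.24 to 0.37. A single mouse in each direction was thus near the middle for Igf1. The mouse with the lowest Igfals of all, replicate 6 of cohort 8, was at -2.24 for Igf1 and -1.64 for Ghr but at 1.95 for Socs2, and its array had the third widest spread of scores.

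Igf1 also went with the inhibitor Cish. The correlation was r = 0.338 and rho = 0.353 (permutation p = 2e-05 for r), and 0.402 with batch and cohort removed. It was positive in all 8 batches (0.236 to 0.453) and in all 9 larger cohorts, and the limma adjusted p was 0.00363 and 0.00101 in the 2 directions. The 5 mice with the highest Igf1 had Cish scores of 0.46, 0.66, 0.81, 1.14 and 1.95, all above the median. The 5 with the lowest Igf1 were mixed, with Cish scores of -1.06, -0.86, -0.59, 0.13 and 0.48. The mouse with the highest Igf1 of all, replicate 10 of cohort 9, stood at 1.95 for Cish, 1.35 for Igfals and 1.11 for Socs2, and at -1.39 for Igfbp2.

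The growth hormone receptor Ghr, through which the liver responds to the hormone, went with the serum carrier Igfals at r = 0.292 and rho = 0.273 (permutation p = 0.00026 for r), or 0.318 with batch and cohort removed. This pair passed (limma adjusted p = 0.0105 and 0.0158) and was positive in all 9 larger cohorts and all 8 batches, although in batch 2 the value was 0.000607. Of all gene pairs on the array, 5.61% had an r of at least 0.292 in size. Ghr and Igf1 correlated at r = 0.317 and rho = 0.331 (permutation p = 5e-05 for r), positive in all 8 batches, from 0.102 to 0.542, and in 8 of 9 cohorts. This pair passed in 1 direction only (adjusted p = 0.0163 and 0.0669) and was therefore not called, although its r was larger than that of Ghr and Igfals. Ghr and the inhibitor Socs2 had a negative r of -0.226 that was below 0 in all 8 batches and all 9 cohorts, and it did not pass (adjusted p = 0.174 and 0.278). The shares of all gene pairs with an r of at least the same size were 3.98% for Ghr with Igf1 and 12.8% for Ghr with Socs2.

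The genes of the 3 proteins that carry the signal inward from the cell surface did not order the mice alike as a group. Jak2, the kinase bound to the receptor, and Stat5b, the factor it phosphorylates, correlated at r = 0.383 (95% interval 0.241 to 0.509) and rho = 0.352 (permutation p = 1e-05 and 2e-05). The value was 0.455 with batch and cohort removed and 0.349 without the 2 mice farthest from the Stat5b median, and the pair passed in both directions (limma adjusted p = 1.44e-04 and 1.64e-06). It was positive in 7 of 8 batches, with r = -0.318 in batch 8 (11 mice), and in 7 of 9 cohorts, with -0.0343 in cohort 1 (20 mice) and -0.714 in cohort 5 (6 mice). Neither Jak2 nor Stat5b passed with Ghr.

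The place of this pair among all genes differed by direction. Jak2 stood sixth among the genes associated with Stat5b, but Stat5b stood at place 565 for Jak2, since 10101 genes (43.6%) were associated with Jak2. Jak2 scores also followed the first principal component of the whole array table, which held 12.1% of the variance, at r = 0.616, whereas the other 9 genes had values of 0.19 or less in size. With that component as a covariate, 240 genes were associated with Jak2 and the Jak2 and Stat5b pair was still called. What the component stands for was not tested.

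Stat5b stood slightly opposite the carrier Igfals, whose gene the Stat5b protein is known to activate. It had r = -0.197 and rho = -0.200 with Igfals (permutation p = 0.0136 and 0.0118) and -0.269 with batch and cohort removed, negative in 7 of 8 batches. The pair passed narrowly (limma adjusted p = 0.0273 and 0.0490). Such a correlation was common: 17.7% of all gene pairs on the array had an r of at least 0.197 in size. With batch and cohort means removed, 6.88% had one of at least 0.269. With Igf1 the value was r = -0.213, negative in 6 of 8 batches, and it did not pass (adjusted p = 0.316 and 0.118). With Cish and Socs2, which Stat5b also activates, r was -0.107 and -0.0474, and neither pair passed. The score is of the transcript and holds nothing on phosphorylation of the protein.

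**Figure D3:**
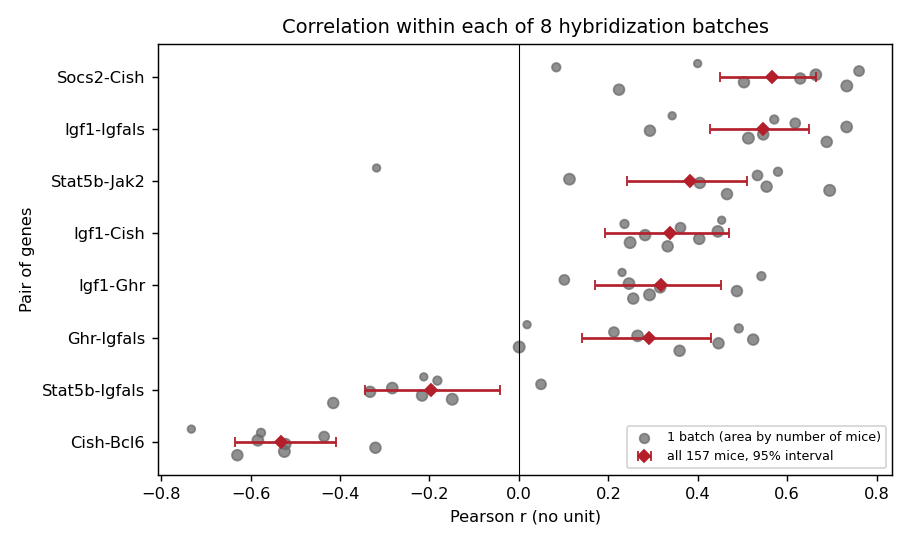
Pearson r (no unit) for the 8 pairs that passed the adjusted threshold or had an r of at least 0.3 in size. Diamonds with bars give r and its 95% interval over 157 mice, and grey points give r within each of 8 hybridization batches of 11 to 24 mice, with area by number of mice. All pairs keep their sign in every batch except Stat5b with Jak2 (-0.318 in batch 8) and Stat5b with Igfals (0.0494 in batch 6). The batch values nearest to 0 are 0.293 for Igf1 with Igfals, -0.321 for Cish with Bcl6 and 0.236 for Igf1 with Cish. No interval was computed within a batch.

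The other 2 IGF carriers behaved unlike Igfals. Igfbp3, which forms the serum complex with Igf1 and Igfals, passed with none of the other 9 genes by limma or by ordinary least squares. Its r was 0.0326 with Igf1 and 0.0831 with Igfals, and the largest in size was -0.215 with Jak2 (permutation p = 0.00674, limma adjusted p = 0.514 and 0.0246), the one pair of Igfbp3 with an unadjusted permutation p under 0.05. Across the whole array no gene passed for association with Igfbp3 by limma or by ordinary least squares, and 1920 of 23175 had an unadjusted limma p under 0.05. In liver, Igfbp3 is made mainly by cells other than hepatocytes, and the scores hold no level by which cell types could be compared.

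Igfbp2, a carrier that growth hormone is known to lower, had a negative r of -0.241 with Igf1. The value was below 0 in all 8 batches, from -0.492 to -0.0535, and did not pass (limma adjusted p = 0.117 and 0.0537). Of all gene pairs on the array, 10.6% had an r of at least 0.241 in size. The 5 mice with the highest Igf1 had Igfbp2 scores of -1.39, -0.69, -0.22, -0.17 and -0.11, all below the median. In the 5 mice lowest for Igf1, Igfbp2 scored -0.55, 0.00, 1.06, 1.11 and 1.86, which overlapped the first set. The score of 1.06 in the second set is that of the mouse with the lowest Igfals.

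The number of other genes associated with each axis gene ranged widely. Apart from Jak2, Stat5b had 1289 associated genes (5.56%), Igfals 677 (2.92%) and Ghr 631 (2.72%). Socs2 had 223 (0.962%), Cish 159 (0.686%), Igfbp2 156 (0.673%), Igf1 66 (0.285%) and Bcl6 8 (0.0345%). Positive associations were the more frequent for Igf1 (48 of 66), Cish (117 of 159), Socs2 (144 of 223) and Stat5b (879 of 1289). They were also the more frequent for Igfals (469 of 677), Ghr (341 of 631) and Igfbp2 (102 of 156). Negative ones were the more frequent for Jak2 (5885 of 10101) and Bcl6 (5 of 8). This balance changed with the processing. With the first principal component as a covariate Jak2 had 178 positive and 62 negative, and Ghr 384 and 619. With no covariates Socs2 had 224 and 237. The order of the sets changed with the processing: with the first principal component as a covariate Ghr had 1003, Igfals 774, Socs2 403 and Stat5b 389, and without the 2 arrays of widest score spread Stat5b had 669.

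Some single genes followed the inhibitors more closely than any axis gene did. The smallest adjusted p-values over the 10 fits belonged to ENSMUSG00000050974 with Socs2 (r = 0.813, limma adjusted p = 2.23e-18) and ENSMUSG00000043013 with Cish (r = 0.756, adjusted p = 3.83e-16). Among negative associations outside the axis they belonged to ENSMUSG00000029359 (r = -0.578, adjusted p = 1.46e-09) and ENSMUSG00000079327 (r = -0.551, adjusted p = 4.69e-09), both with Jak2. No table used here pairs these identifiers with a symbol.

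Across kill cohorts, no axis gene passed. The limma F test over the 10 cohorts, with batch as a covariate, called 0 of the 10 genes where 2.45% of all genes were called. Ordinary least squares and a Kruskal-Wallis test also called 0, and the share of all genes they called is not given here. Kill cohort and strain number overlapped in large part: 63 of 73 mice in cohorts 1 to 6 had a strain number below 3000, and 79 of 84 in cohorts 7 to 10 had 3000 or above. With blocks of 1000 strain numbers as a covariate, limma called 0% of all genes for kill cohort in place of 2.45%, and 0% for the kill day trend (2452 genes and 1357 at an unadjusted p under 0.05). In the F test without strain blocks, Igfbp2 alone of the 10 genes had an unadjusted p under 0.05 (F = 2.31, p = 0.0136, adjusted p = 0.167). Of all 23176 genes, 3885 had such a p in that test. Beyond hybridization batch, kill cohort added a share of the total variance, which was 12.7% for Igfbp2, 9.59% for Ghr and 9.21% for Stat5b. It was 3.87% to 7.80% for the other 7 genes, and the mean over all genes was 7.26%.

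Igfbp2 was lowest in cohort 4, where its 5 mice scored -1.77, -1.43, -0.93, -0.37 and 0.18 (mean -0.866 ± 0.787, SD, n = 5). In cohort 8 it ranged from -2.49 through a median of -0.47 to 1.06 (mean -0.561 ± 0.874, n = 22). It was highest in cohort 5, from -0.53 through a median of 0.79 to 1.70 (mean 0.705 ± 0.846, n = 6). These ranges overlapped. Set against the mean of the other cohorts, the cohort 8 difference was -0.60 ± 0.23 (SE) and did not pass (limma adjusted p = 0.195).

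Stat5b was lowest in cohort 8 and high in the small cohorts 4 and 5. Its scores in cohort 8 ran from -1.95 through a median of -0.61 to 1.64 (mean -0.496 ± 0.917, n = 22), in the 5 mice of cohort 4 they were -0.17, -0.07, 0.41, 1.27 and 1.95, and in cohort 5 they ran from -0.02 to 1.21 with a median of 0.64 (n = 6). Cohort 8 differed from the mean of the others by -0.72 ± 0.23 (limma adjusted p = 0.0841), while 1.22% of all genes passed in that contrast. Among all 100 contrasts of a gene and a cohort with the other cohorts, 0 passed by limma or by ordinary least squares (0.189% over all genes, with 0.544% in cohort 1, 0.129% in cohort 7 and 0% in the cohorts other than 1, 7 and 8), and 9 had an unadjusted p under 0.05. Of all 23176 genes, between 1281 (cohort 4) and 3440 (cohort 1) had such a p in a contrast. With the first principal component as a covariate the Stat5b contrast of cohort 8 passed (adjusted p = 0.0401).

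Ghr was lower in cohort 1 than in cohort 2, which was killed 28 days later, but within the spread of the mice. The cohort 1 scores ran from -1.70 through a median of -0.56 to 1.27 (n = 20) and the cohort 2 scores from -1.48 through 0.42 to 2.24 (n = 21). The difference was 0.81 ± 0.30 (limma adjusted p = 0.163). Contrasts of cohort 7 with 1, 8 with 2, 2 with 1 and 9 with 8 called 0 of 40 values for these genes by limma or by ordinary least squares, where 3.49%, 1.5%, 0.155% and 0.00431% of all genes passed, and 5 of the 40 had an unadjusted p under 0.05. This unadjusted count is not set against all genes here, so nothing is read from it.

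Igf1 was highest in the last 2 cohorts, with means of 0.420 ± 1.11 (n = 12) in cohort 9 and 0.412 ± 0.859 (n = 13) in cohort 10. It was lowest in cohort 5 (-0.523 ± 0.711, n = 6), cohort 2 (-0.288 ± 0.921, n = 21) and cohort 1 (-0.213 ± 0.591, n = 20). The spreads overlapped. Over kill day the slope of Igf1 was 0.18 ± 0.09 units per 100 days (p = 0.0496, limma adjusted p = 0.319) and that of Stat5b fell by 0.19 ± 0.09 per 100 days (p = 0.0386, adjusted p = 0.281). These were the 2 genes with an unadjusted p under 0.05, and 0 of 10 passed by limma or by ordinary least squares, against 3.49% of all genes (1.13% rising and 2.36% falling). Of all 23176 genes, 3622 had an unadjusted p under 0.05 for this slope.

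**Figure D4:**
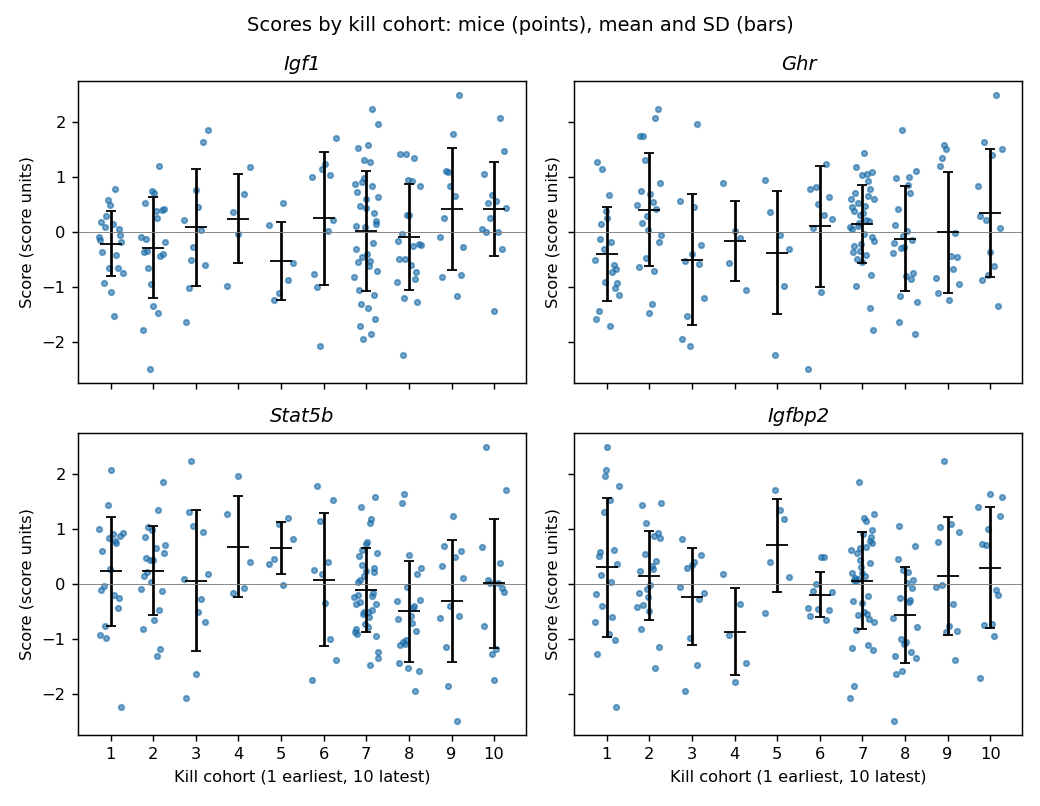
Rank scores (score units) of every mouse by kill cohort (1 earliest, 10 latest) for Igf1, Ghr, Stat5b and Igfbp2, with bars for mean and SD. The cohorts overlap for all 4 genes, and the lowest cohort means are -0.523 for Igf1 (cohort 5), -0.505 for Ghr (cohort 3), -0.496 for Stat5b (cohort 8) and -0.866 for Igfbp2 (cohort 4).

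The other 6 genes also had cohort means within the spread of their mice. Cish and Socs2 both had their highest means in cohort 5 (0.655 ± 1.03 and 0.538 ± 1.00, n = 6), and Bcl6 its lowest there (-0.721 ± 1.08). In cohort 6 the order was turned for 2 of them, with the highest Bcl6 (0.579 ± 1.04, n = 10) and the lowest Cish (-0.617 ± 1.08). Socs2 had its lowest mean in cohort 4 (-0.484 ± 1.43, n = 5), against -0.377 ± 0.837 in cohort 6. Igfals ran from a mean of -0.322 ± 0.976 in cohort 8 to 0.398 ± 0.834 in cohort 4, Igfbp3 from -0.540 ± 0.998 in cohort 9 to 0.324 ± 0.877 in cohort 6, and Jak2 from -0.277 ± 0.826 in cohort 7 to 0.212 ± 0.726 in cohort 5. The SD within a cohort exceeded each of these means.

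The correlations of the 7 called pairs, and of Igf1 with Ghr, were also computed in the earlier and the later mice. In cohorts 1 to 6 and cohorts 7 to 10 respectively, r was 0.582 and 0.554 for Socs2 with Cish, -0.496 and -0.582 for Cish with Bcl6, and 0.403 and 0.337 for Stat5b with Jak2. It was 0.411 and 0.667 for Igf1 with Igfals, 0.244 and 0.455 for Igf1 with Cish, and 0.172 and 0.434 for Igf1 with Ghr. It was 0.253 and 0.339 for Ghr with Igfals, and -0.342 and -0.0765 for Stat5b with Igfals. The sign was the same in both sets of mice for all 8 pairs, and the differences in size, which ran in both directions, were not tested.

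Of the technical and breeding labels, none moved the 10 genes past the threshold. Hybridization batch called 0 of 10 by limma or by ordinary least squares, with 0 at an unadjusted p under 0.05, where 12.2% of all genes passed. Blocks of 1000 strain numbers called 0 of 10 by both (0.652% of all genes), with Igfbp3 and Stat5b at an unadjusted p of 0.0352 and 0.0485. Kill day within cohort, fluidic station and array slot each called 0 of 10 by both, as they called 0% of all genes, with 2, 0 and 1 of the 10 at an unadjusted p under 0.05. The unadjusted counts for these labels are not set against all genes here. A pair of arrays had a wide spread of scores over all genes, with SDs of 1.57 (replicate 9 of cohort 9) and 1.40 (replicate 2 of cohort 2) against a median of 0.943, and they hold the lowest Stat5b and the lowest Jak2 score. Without them the same 7 pairs passed.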

How the data were processed

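Liver RNA of 157 mice was measured on 1 array each. Per the series design text, the authors used a custom definition of Ensembl genes (NCBI 37, Ensembl 49) to combine the probes. The submitters' processing notes name RMA and affy, with versions not given in the sources used. The deposited value is a score for each gene and array. For every gene on the array it matched, within 6e-05, a rank-based normal score: mice were ranked, ties shared a mean rank, and rank over highest rank plus 1 was turned into a quantile of the standard normal. The labels used here do not mention this step, which removes level and spread from each gene. The planned tests were kept, as they need no level.

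Models were fitted with limma 3.58.1 (lmFit and eBayes with trend) in R 4.3.3 to all genes, with Benjamini-Hochberg adjustment over all genes and a threshold of 0.05. The spread of single genes was replaced by a shared value in moderation, so ordinary least squares was run beside it. Correlations used pandas 2.3.3, scipy 1.17.1 and numpy 2.4.6 under Python 3.11.15, with 100000 permutations and Fisher's 95% interval. The steps were tested on simulated data. Labels gave 8 batches, against 6 in the series design text. Because each mouse was sampled once, p-values rest on the spread between mice, and the number of arrays limits the precision. Replicate numbers only name arrays.

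The members and lists were chosen with earlier results of these data known. The rule for named genes took the 10 members and, for each, its 2 closest genes in each direction. Without a table that pairs identifiers with symbols, only 2 identifiers in each direction are printed, and the pathway lists and cell type markers of the design could not be used, so the liver label was not checked against markers.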

Additional observations from a re-analysis of the deposited data

How the results depend on the processing

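All 7 pairs kept their sign under each of the 7 alternative fits, and the same 7 passed without the 2 widest arrays. Among cohorts 1 to 6 alone 2 pairs passed (Stat5b with Jak2, Socs2 with Cish), and among cohorts 7 to 10 alone 2 passed (Igf1 with Igfals, Socs2 with Cish). These fits hold 73 and 84 mice. In both, fewer genes of the whole array passed than over all mice with each member except Igfbp3, which had 0 throughout. With no covariates 7 pairs passed, with Igf1 and Ghr in place of Stat5b and Igfals (adjusted p = 0.153). With the first principal component as a covariate 8 passed (Igf1 with Igfbp2 added), with ordinary least squares 8 (Igf1 with Ghr added) and after quantile normalization 10. Pairs with r of at least 0.3 in size numbered 5 to 9 over the alternatives, against 6.

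Kill cohort and kill day trend called 0 of the 10 genes under every alternative, including the range of 0 to 0 when each mouse of cohort 4, the smallest, was left out in turn. With strain-number block as a covariate the share of all genes called went from 2.45% to 0% for kill cohort and from 3.49% to 0% for the trend. For the other alternatives the share of all genes called is not given here, so nothing about the 10 genes is read from those counts. Contrasts of a cohort with the others went from 0 to 1 with the first principal component as a covariate (Stat5b in cohort 8). That covariate also took the genes associated with Jak2 from 10101 to 240 and with Stat5b from 1289 to 389, and raised those with Ghr from 631 to 1003, with Socs2 from 223 to 403 with Igfbp2 from 156 to 333 and with Bcl6 from 8 to 13. Without the 2 widest arrays Stat5b had 669. With no covariates Ghr had 1083, Socs2 461 and Igfbp2 477, after quantile normalization Igf1 had 163, Stat5b 774 and Igfbp2 290, and with ordinary least squares Igfbp2 had 242. In cohorts 1 to 6 alone and cohorts 7 to 10 alone, Jak2 had 5287 and 5691, Stat5b 161 and 60, Cish 53 and 28, Ghr 31 and 42, Igfals 10 and 161, Socs2 8 and 41, Igf1 0 and 19, Igfbp2 0 and 21, and Bcl6 0 and 0. The causes were not tested. A filter on low values was not run, since scores hold no levels. No paired analysis was possible because the numbers given to mice within a cohort pair nothing across cohorts.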

Other observations

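Holding a further gene fixed, as well as batch and cohort, changed some correlations more than others. The gene held fixed differed between pairs, so the sizes of the changes cannot be set against each other. The correlation of Igf1 with Socs2 went from 0.260 to 0.0398 with Cish held fixed, and that of Igf1 with Bcl6 from -0.246 to -0.057. That of Cish with Igfals went from 0.256 to 0.0437 with Igf1 held fixed. That of Igf1 with Igfals was 0.553 and 0.503 with Ghr held fixed, and that of Igf1 with Cish was 0.402 and 0.324 with Igfals held fixed. With all the other axis genes held fixed, Igf1 with Igfals was 0.364 and Igf1 with Cish 0.15. On the same footing Socs2 with Cish was 0.466 and Cish with Bcl6 -0.401. The negative correlation of Ghr with Socs2 went from -0.206 to -0.315 with Igf1 held fixed. These values are descriptions over 157 mice, and no test was made of them.

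The mice at the ends of Socs2 and Ghr had the following scores for other axis genes. The mouse with the highest Socs2 (replicate 9 of cohort 1) also stood high for Cish (1.86) and for Igfbp2 (1.95), but low for Igfals (-1.95). The mouse with the lowest Socs2 (replicate 26 of cohort 7) stood low for Igfals (-2.08) and Igf1 (-1.86) and high for Bcl6 (2.24). The mouse with the highest Ghr (replicate 10 of cohort 10) also had the lowest Igfbp3, and stood at 2.08 for Igf1.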
